A study of Mus musculus with 30 samples.

Results

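The transcripts of 10 genes of the DNA damage checkpoint were followed in a mouse lymphoma line exposed to mafosfamide, which releases the active alkylating species of cyclophosphamide without the liver, and in derivatives of that line selected for resistance to it. The genes were taken by name, with earlier results of these data known, and comprised the kinases Prkdc, Atm, Atr, Chek1, Chek2 and Wee1 and the mediators Topbp1, Trp53bp1, Mdc1 and H2ax. All 10 were measured, out of 19937 genes with a named probe set on the array. The cells came from a C57BL/6J mouse carrying the Eμ-Myc transgene, in which an immunoglobulin heavy chain enhancer drives Myc in B-lineage cells, and were Cdkn2a-/- in every group. They grew on irradiated Cdkn2a-/- mouse embryonic fibroblasts. The resistant lines R100, R500, R1000 and R4000 were isolated at steps of 1 dose escalation of this parental line, at 100, 500, 1000 and 4000 nM, so they are not independent derivations. R500, R1000 and R4000 were measured after 24 h of 750 nM mafosfamide and untreated, R100 untreated, 1 array each. Parental cells were measured at 0 h and after 6, 12, 24 and 48 h of 750 nM mafosfamide on 5, 4, 4, 5 and 5 arrays, labelled as biological replicates.

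Alkylating drugs that cross-link DNA stall replication forks and lead to breaks. Stretches of single-stranded DNA activate ATR, and double-strand breaks activate ATM and the DNA-dependent protein kinase, whose catalytic subunit is encoded by Prkdc. ATR and ATM pass the signal to the kinases CHK1 and CHK2, which with WEE1 hold back the cyclin-dependent kinases, and the histone H2AX is phosphorylated along the broken DNA, where MDC1 and the p53-binding protein encoded by Trp53bp1 assemble. These proteins are regulated chiefly by phosphorylation, which an array of transcripts does not measure.

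Each gene had 1 probe set that named it alone, and values are log2 expression after robust multi-array averaging, a scale on which 1 unit is a doubling. H2ax was also named by a probe set shared with other histone genes, which was not used. Levels of different genes were not compared, since each probe set has its own response. Atm, Atr, Chek1, H2ax and Topbp1 lie on chromosome 9, Prkdc on 16, Chek2 on 5, Wee1 on 7, Trp53bp1 on 2 and Mdc1 on 17. The RefSeq promoter table (GRCm38.p6, 250 bases before to 50 after a gene's start) held 7 of the 10 genes, without Prkdc, H2ax and Wee1. The 3 promoters below belong to the genes that passed a test at 24 h with or without pairing of the arrays and that the table held. Capitals mark the CCAAT box (CCAAT), the GC box (GGGCGG) and the core of an E2F site (TTCCCGC), searched on both strands with overlaps allowed.
Atm promoter (chr9:53536622-53536921, minus strand): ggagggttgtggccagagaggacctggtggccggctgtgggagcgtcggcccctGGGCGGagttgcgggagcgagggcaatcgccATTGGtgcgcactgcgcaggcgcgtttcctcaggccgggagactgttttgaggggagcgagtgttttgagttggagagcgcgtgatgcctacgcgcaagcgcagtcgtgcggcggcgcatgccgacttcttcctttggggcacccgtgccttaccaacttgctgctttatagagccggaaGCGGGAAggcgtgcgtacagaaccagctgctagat
Chek1 promoter (chr9:36726609-36726908, minus strand): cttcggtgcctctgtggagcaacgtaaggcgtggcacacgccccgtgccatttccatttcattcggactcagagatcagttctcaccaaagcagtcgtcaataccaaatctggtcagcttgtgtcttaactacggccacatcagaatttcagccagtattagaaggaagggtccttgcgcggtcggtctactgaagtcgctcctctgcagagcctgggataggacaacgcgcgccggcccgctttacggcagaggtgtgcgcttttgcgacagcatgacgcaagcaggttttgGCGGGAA
Mdc1 promoter (chr17:35841248-35841547, plus strand): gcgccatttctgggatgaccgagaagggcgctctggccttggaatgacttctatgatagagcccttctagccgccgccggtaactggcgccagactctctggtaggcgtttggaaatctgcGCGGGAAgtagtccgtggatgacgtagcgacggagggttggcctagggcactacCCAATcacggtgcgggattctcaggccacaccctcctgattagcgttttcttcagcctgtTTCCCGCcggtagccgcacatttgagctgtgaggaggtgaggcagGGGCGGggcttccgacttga
The E2F core stood in all 3 of these windows and in that of Chek2, thus in 4 of the 7 promoters, against 4.6% of the 32851 promoters in the table. The GC box stood in 5 of the 7 (35.7% of all promoters) and the CCAAT box in 3 (37.4%). The E-box CACGTG (7.15% of all) and the cell cycle element TTTGAA (17.9%) stood in 0 of the 7. A match of letters is no evidence of binding.

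On these arrays the B-lineage markers were high throughout, with Cd79a between 13.23 and 13.62 and Pax5 between 11.50 and 12.05, and 7 of 8 listed were measured. Ms4a1 ranged more widely, between 6.88 and 12.41. The mean of 9 T and NK cell markers did not pass 6.43 on any array, nor that of 9 myeloid markers 7.17. The fibroblast markers, of which 26 of 30 were measured, had array means of 8.28 to 9.88 in parental cells at 24 h, against 7.99 to 8.60 at 0 h, and of 7.79 to 8.16 in treated against 8.20 to 8.44 in untreated resistant lines. Col1a1, a collagen that fibroblasts make, lay between 8.35 and 9.89 over the 30 arrays. The fifth 0 h array stood apart: its interquartile range was 3.07, against 3.34 to 3.64 on the other 29 arrays, and it gave the lowest of the 5 values at 0 h for 9 of the 10 checkpoint genes. The first 0 h array gave the highest for 7. Every comparison with 0 h holds these arrays, and all comparisons with 0 h share them.

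**Figure D1:**
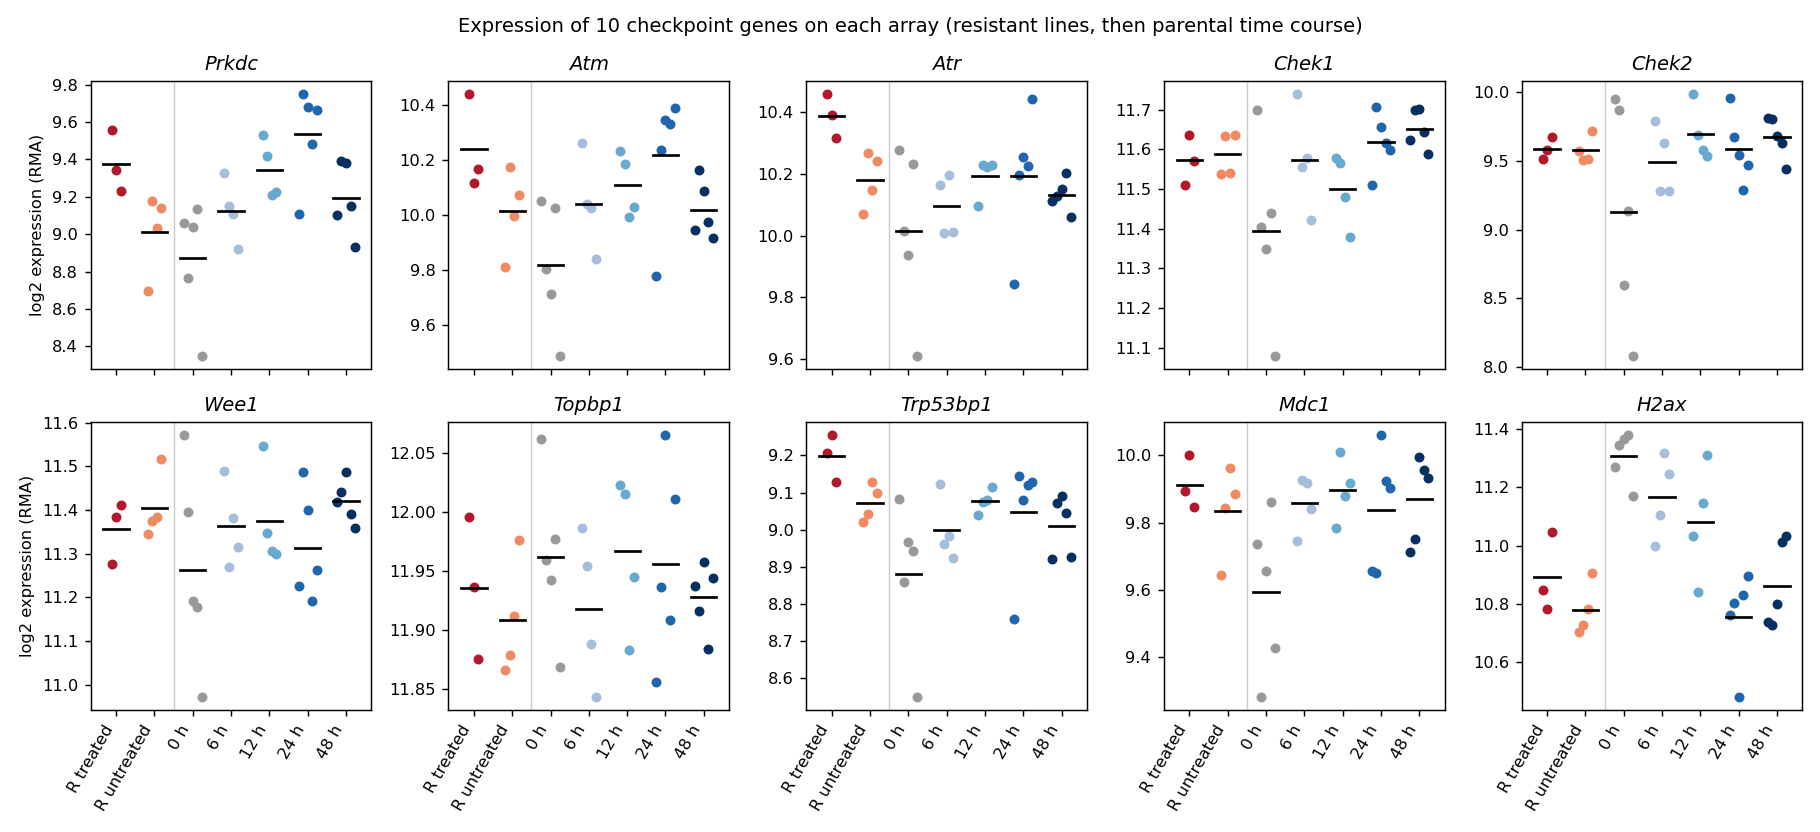
Log2 expression (y axis, own range per gene) of the 10 genes on each of the 30 arrays. Points are arrays and bars group means; R treated and R untreated are the resistant lines with and without 24 h of 750 nM mafosfamide, followed by parental cells at 0, 6, 12, 24 and 48 h. At 24 h all 5 values of H2ax lie below the 5 at 0 h, while 1 array at 0 h is the lowest for 9 of the genes.

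To follow the response of the parental line, the arrays of each time were set against those of 0 h. At 24 h 3 of the 10 genes passed the test, Prkdc and Atm higher and H2ax lower. Over all genes tested 6.78% passed at that time, 4.35% higher and 2.43% lower (limma with Benjamini-Hochberg adjustment over 19937 genes, threshold 0.05). The median change of the 10 genes was 0.20, against -0.04 over all genes. At 48 h H2ax alone passed, again lower, where 0.251% of all genes passed and 0.14% did so lower. None of the 10 passed at 6 h (0.0201% of all genes) or at 12 h (0.512%) in limma. An unadjusted p below 0.05 was found for 1 and 6 of them, and for 1022 and 2378 of all 19937 genes.

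The phosphatidylinositol 3-kinase-like kinases stand at the head of the pathway. Prkdc, the catalytic subunit of the kinase that drives end joining, had values of 9.06, 8.77, 9.04, 9.14 and 8.35 at 0 h, of 9.33, 9.15, 9.11 and 8.92 at 6 h, of 9.53, 9.42, 9.21 and 9.22 at 12 h, of 9.11, 9.75, 9.68, 9.48 and 9.66 at 24 h and of 9.10, 9.39, 9.38, 9.15 and 8.93 at 48 h. All 4 arrays at 12 h lay above all 5 at 0 h, which held for 1.71% of all genes, while at 24 h the first array lay within the range of 0 h and the other 4 above it. Prkdc averaged 9.54 ± 0.26 at 24 h and 8.87 ± 0.32 at 0 h (SD, n = 5 each). The difference was 0.67 (SE 0.14, 1.59-fold, adjusted p = 0.00929, limma), and Prkdc was higher in 5 of 5 pairs of arrays with the same number. At 12 h the difference was 0.47 (SE 0.15, adjusted p = 0.20) and at 48 h 0.32 (SE 0.14, adjusted p = 0.388), neither of which passed. Without the fifth 0 h array the difference at 24 h was 0.54 and still passed, but with only these 2 times fitted it did not (adjusted p = 0.0927).

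Atm, which responds to double-strand breaks, had values of 10.05, 9.80, 9.71, 10.03 and 9.49 at 0 h and of 9.78, 10.24, 10.35, 10.33 and 10.39 at 24 h. At 24 h 4 arrays lay above the 5 of 0 h and the first lay among them. Its mean was 10.22 ± 0.25 at 24 h and 9.82 ± 0.23 at 0 h (SD, n = 5 each), a rise of 0.40 (SE 0.11, 1.32-fold, adjusted p = 0.0409, limma) seen in 4 of 5 pairs of arrays with the same number. This call was narrow. It was lost on leaving out 7 of the 10 arrays in turn, among them the fifth 0 h array, without which the difference was 0.32 (adjusted p = 0.118). At 6, 12 and 48 h Atm lay between 9.84 and 10.26, and its differences from 0 h of 0.22, 0.29 and 0.20 did not pass. Atr, the kinase of stalled forks, did not pass at any time: its values spanned 9.61 to 10.28 at 0 h and 9.84 to 10.44 at 24 h, with a difference of 0.18 (SE 0.11, 95% interval -0.04 to 0.40, adjusted p = 0.254, limma).

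None of the kinases downstream passed. Chek1, the main target of ATR, spanned 11.51 to 11.71 at 24 h and 11.59 to 11.70 at 48 h, against 11.08 to 11.70 at 0 h, where the spread came mostly from the first array and the fifth. Its difference at 24 h was 0.22 (SE 0.08, adjusted p = 0.0927, limma), short of the threshold. Chek2, the main target of ATM, was the least settled of the 10 at 0 h, with values of 9.95, 9.87, 8.60, 9.14 and 8.08. The 24 h values of 9.96, 9.68, 9.54, 9.29 and 9.47 lay within that range except the first, which was just above it, and the difference of 0.46 had an SE of 0.25 (95% interval -0.05 to 0.97). Without the fifth 0 h array it was 0.20. Wee1, which phosphorylates and restrains CDK1, differed by 0.05 at 24 h (SE 0.09, 95% interval -0.13 to 0.24) and by 0.16 at 48 h (SE 0.09), and neither passed.

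Among the mediators, Topbp1, which activates ATR, showed the smallest differences, between -0.04 and 0.00 over the 4 times, with a 95% interval of -0.12 to 0.10 at 24 h. Trp53bp1, which favours end joining at breaks, differed by 0.12, 0.20, 0.17 and 0.13 at 6, 12, 24 and 48 h, and Mdc1, the protein that reads phosphorylated H2AX, by 0.26, 0.30, 0.25 and 0.28. Neither passed at any of these times, with an adjusted p of 0.115 for Mdc1 at 24 h. When the arrays were paired by their number as a replicate block, 5 of the 10 genes passed at 24 h, Chek1 (0.22, adjusted p = 0.0312) and Mdc1 (0.25, adjusted p = 0.0250) in addition to Prkdc, Atm and H2ax. In that fit 23.6% of all genes passed. At 48 h 2 passed with the block, Mdc1 (0.28, adjusted p = 0.0462) and H2ax, where 3.28% of all genes passed.

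**Figure D2:**
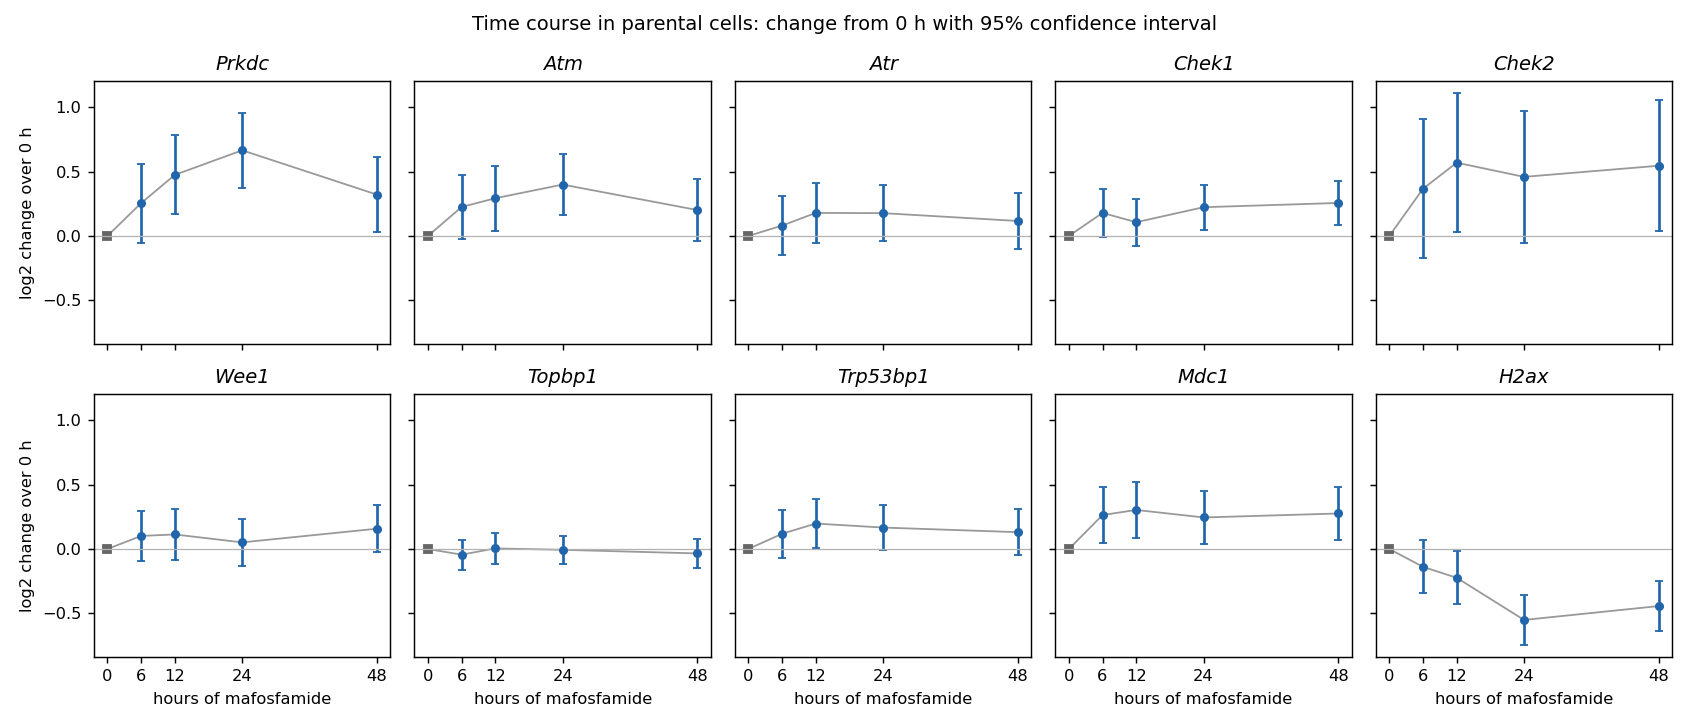
Log2 change from the 0 h mean (y axis) against hours of 750 nM mafosfamide (x axis) for each gene in parental cells, with 95% confidence intervals from limma; the square marks 0 h. Prkdc stands at 0.67 and Atm at 0.40 at 24 h, and H2ax at -0.55 at 24 h and -0.44 at 48 h.

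H2ax, the histone variant whose phosphorylated form marks breaks, was the gene of the 10 that fell. It had values of 11.27, 11.34, 11.37, 11.38 and 11.17 at 0 h, of 11.00, 11.11, 11.32 and 11.25 at 6 h, of 11.03, 10.84, 11.14 and 11.31 at 12 h, of 10.76, 10.80, 10.48, 10.83 and 10.90 at 24 h and of 10.74, 10.73, 10.80, 11.01 and 11.03 at 48 h. The arrays of 24 h and of 48 h did not overlap those of 0 h, which was true of 4.57% and 1.62% of all genes, whereas at 6 and 12 h they did. H2ax averaged 10.76 ± 0.16 at 24 h and 11.31 ± 0.09 at 0 h (SD, n = 5 each). The fall was -0.55 (SE 0.09, 1.47-fold lower, adjusted p = 0.0017, limma) at 24 h and -0.44 (SE 0.09, 1.36-fold lower, adjusted p = 0.04) at 48 h. At 24 h it passed whichever of the 10 arrays was left out, with -0.59 to -0.48, and in 5 of 5 pairs of arrays with the same number the 24 h value was the lower. At 48 h the call was lost on leaving out 8 of the 10 arrays in turn. In these bulk samples fewer cells that carry a transcript and less of it per cell cannot be told apart.

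Between 24 and 48 h none of the 10 genes passed (0.105% of all genes, limma). Prkdc alone of the 10 had an unadjusted p below 0.05, as did 1349 of all 19937 genes. Prkdc averaged 9.19 ± 0.20 at 48 h and 9.54 ± 0.26 at 24 h (SD, n = 5 each), a difference of -0.34 (SE 0.14, adjusted p = 0.646), and Atm differed by -0.20 (SE 0.11, adjusted p = 0.831). The H2ax level differed by 0.11 (SE 0.09, 95% interval -0.09 to 0.30). The other 7 differences were 0.11 for Wee1, 0.09 for Chek2, 0.03 for Chek1 and for Mdc1, -0.03 for Topbp1, -0.04 for Trp53bp1 and -0.06 for Atr.

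Fibroblast markers moved with the 24 h comparison, where 24 of 26 were higher with a median change of 1.35. Of the 26, 15 passed the threshold as higher, against 4.35% of all genes. Their part in the 3 results was not tested as a cause. With the fibroblast mean of each array as a covariate the changes at 24 h were 0.78 for Prkdc (adjusted p = 0.0233), 0.52 for Atm (adjusted p = 0.0715) and -0.63 for H2ax (adjusted p = 0.00605). Without the 2 arrays of highest fibroblast mean at 24 h, an alternative chosen after the data were seen, they were 0.74, 0.54 and -0.57. All 3 passed, but the share of all genes that passed in that fit is not given here. The count is thus no result about these 3 genes.

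The rest of the pathway gave 62 measured genes of 67 listed, and 6 of them passed at 24 h (9.68%, against 6.78% of all genes), 4 higher and 2 lower, with a median change of 0.06. Rpa1, a subunit of the protein that coats single-stranded DNA, rose by 0.29 (adjusted p = 0.0304), and Mcph1, a chromatin mediator of the checkpoint, by 0.26 (adjusted p = 0.0135). Of 3 other members of the family of ATM, Mtor, which controls growth, rose by 0.31 (adjusted p = 0.041) and Smg1, which acts in nonsense-mediated decay, by 0.29 (adjusted p = 0.0461). Kat5, the acetyltransferase that activates ATM, fell by 0.33 (adjusted p = 0.0321) and Pkmyt1, the membrane-bound relative of WEE1, by 0.38 (adjusted p = 0.0225). None of 8 genes of the DNA-PK and end joining list passed, with a median of -0.05. None of 10 phosphatases and chaperones of these kinases passed either. At 12 h 1 of the 62 passed, Mtor, with a rise of 0.41 (adjusted p = 0.0482), and at 6 and 48 h none did. For comparison within the same arrays, 10 of 19 measured p53 targets passed as higher at 24 h (4.35% of all genes) and 2 as lower (2.43%). Their median change was 0.50. Zmat3 and Ccng1 among them rose by 1.98 and 0.92, while Mdm2 differed by 0.44 and did not pass (adjusted p = 0.118, limma).

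To determine whether the resistant lines differed without drug, the 4 untreated lines were set against parental cells at 0 h. H2ax was the 1 gene of the 10 that passed, where 0.0752% of all genes did and 0.0552% did so lower. It stood at 10.70 in R100, 10.73 in R500, 10.78 in R1000 and 10.91 in R4000, against 11.27, 11.34, 11.37, 11.38 and 11.17 in parental cells at 0 h. The 2 groups did not overlap, as for 3.65% of all genes, and the parental arrays of 24 h spanned 10.48 to 10.90. H2ax averaged 10.78 ± 0.09 (SD, n = 4) in the resistant lines and 11.31 ± 0.09 (SD, n = 5) in parental cells, a difference of -0.53 (SE 0.08, 1.44-fold lower, adjusted p = 0.0446, limma). On leaving out each of the 9 arrays in turn the difference stayed between -0.57 and -0.50, but it passed in 1 case only, without the fifth 0 h array, and the adjusted p reached 0.282. With the fibroblast mean as a covariate it was -0.54 (adjusted p = 0.0959), and neither median centring (adjusted p = 0.114) nor adjustment over all probe sets (adjusted p = 0.149) kept the call. Resistance and the culture history of the lines cannot be told apart.

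For the other 9 genes the differences of the untreated lines lay between -0.05 (Topbp1) and 0.45 (Chek2), and 8 of them were above 0. Atm, Atr and Prkdc differed by 0.20, 0.17 and 0.14, with SEs of 0.13, 0.13 and 0.16. Chek1 (0.19, SE 0.11), Trp53bp1 (0.19, SE 0.10) and Mdc1 (0.24, SE 0.12) had 95% intervals that just included 0. Without the third and the fifth 0 h arrays, an alternative chosen after the data were seen, H2ax differed by -0.55 (adjusted p = 0.0442). The fifth is the lowest 0 h array for H2ax, at 11.17. Leaving out both had to widen the difference from -0.53, so the kept call is no independent support. The third and the fifth are the lowest 0 h arrays for Atm, Atr, Chek1, Chek2 and Topbp1. Leaving them out had to lower the differences of those genes and says nothing about them. None of the 62 other pathway genes passed in this comparison, and their median was 0.10.

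**Figure D3:**
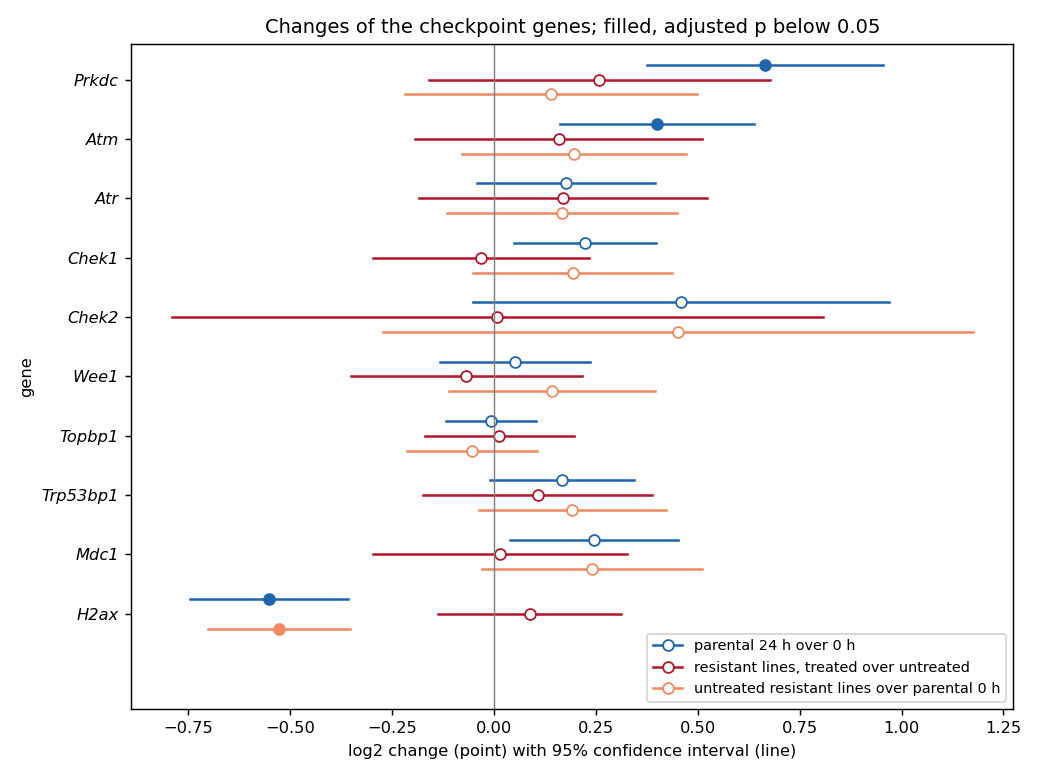
Log2 changes (x axis) with 95% confidence intervals for the 10 genes, in parental cells at 24 h over 0 h, in the resistant lines treated over untreated, and in untreated resistant lines over parental cells at 0 h. Filled points passed the threshold: Prkdc, Atm and H2ax at 24 h, and H2ax in the untreated resistant lines.

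The response of the resistant lines to 24 h of mafosfamide was measured in R500, R1000 and R4000. None of the 10 genes passed (0.0301% of all genes, limma), and 0 had an unadjusted p below 0.05, against 579 of all 19937 genes. Prkdc stood at 9.56, 9.34 and 9.23 in the treated lines R500, R1000 and R4000, against 9.18, 9.03 and 9.14 in the same lines untreated. Atr stood at 10.46, 10.39 and 10.32 treated, against 10.27, 10.15 and 10.24 untreated, and Trp53bp1 at 9.21, 9.26 and 9.13 treated, against 9.04, 9.13 and 9.10 untreated. For these 3 genes all treated lines lay above all untreated ones, which held for 6.92% of all genes. The differences were 0.26 for Prkdc (SE 0.20, 95% interval -0.16 to 0.68), 0.17 for Atr (SE 0.17) and 0.11 for Trp53bp1 (SE 0.13). Atm differed by 0.16 (SE 0.16), and was higher in 3 of 3 lines. Chek1, Chek2, Wee1, Mdc1 and Topbp1 had differences between -0.07 and 0.02. None of the 62 other pathway genes passed, with a median of -0.02.

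H2ax stood at 10.85, 10.78 and 11.05 in treated R500, R1000 and R4000, against 10.73, 10.78 and 10.91 in the same lines untreated. The groups overlapped, and the difference was 0.09 (SE 0.10, 95% interval -0.14 to 0.31). By line it was 0.12, 0.00 and 0.14, whereas the 5 pairs of parental arrays with the same number differed by -0.51, -0.54, -0.88, -0.55 and -0.27 at 24 h. The difference in response between resistant and parental cells was tested directly. For H2ax it was 0.64 (SE 0.13, 95% interval 0.36 to 0.92, unadjusted p = 0.00026, adjusted p = 0.278, limma), which did not pass over all genes. In that test 0% of all genes passed, and 0 of the 10 genes did. H2ax alone among the 10 had an unadjusted p below 0.05, as did 1562 of all 19937 genes. Of the 16 arrays left out in turn, H2ax passed only without the third at 24 h (0.57, adjusted p = 0.0397, limma), the lowest of that time. In that fit 128 of all 19937 genes passed. For Prkdc the difference in response was -0.41 (SE 0.25, 95% interval -0.94 to 0.12) and for Atm -0.24 (SE 0.21), so that a smaller response of the resistant lines was not resolved. Chek2 (-0.45), Chek1 (-0.26), Mdc1 (-0.23), Wee1 (-0.12), Trp53bp1 (-0.06), Atr (-0.01) and Topbp1 (0.02) had intervals that included 0. The median change of the fibroblast markers was -0.20 in the treated resistant lines and 1.35 in parental cells at 24 h, and their part was not tested as a cause. With their mean as a covariate the H2ax difference was 0.80 (adjusted p = 0.99).

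**Figure D4:**
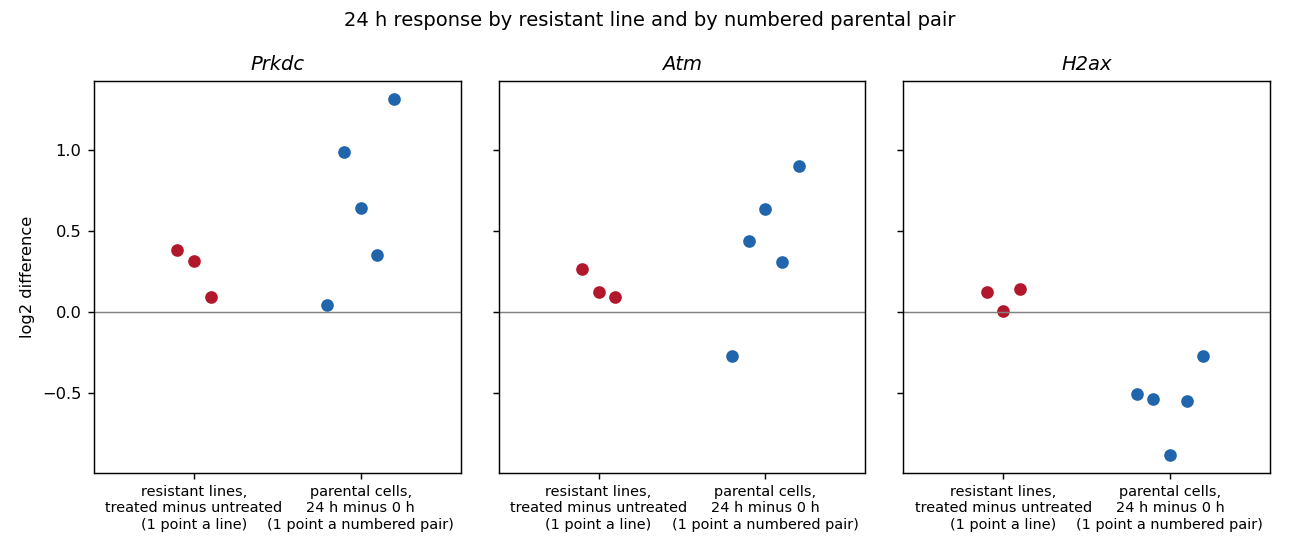
Log2 difference (y axis) after 24 h of mafosfamide for Prkdc, Atm and H2ax, in 3 resistant lines (treated minus untreated, 1 point each) and 5 pairs of parental arrays with the same number (24 h minus 0 h). H2ax lies between 0.00 and 0.14 in the resistant lines and between -0.88 and -0.27 in the parental pairs; Atm falls below 0 in 1 parental pair, at -0.27.

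Over the 30 arrays the genes whose profile was most like that of Prkdc were Herc1 (Pearson r = 0.93), Usp24 (0.90) and Vps13a (0.90), and those most like Atm were Prkdc (0.90), Ipo11 (0.90) and Vps13a (0.89). For H2ax they were Zfp691 (0.86), H2-Ob (0.83) and Fcrla (0.82). Within groups, the deviations of the 23 parental arrays from their time means were described by the same measure. The 9 other genes had median correlations to the rest of the set between 0.39 (Chek2 and Mdc1) and 0.79 (Atm), and H2ax had a median of -0.19. Among the pairs without H2ax, that of Chek2 and Mdc1 (-0.18) and that of Wee1 and Mdc1 (-0.07) lay below 0. Without the fifth 0 h array the median for Chek2 was 0.03 and that for H2ax -0.36, the pair of Chek2 and Mdc1 stood at -0.48, and that of Atm and Prkdc at 0.84. With the mean of 20 G2/M genes the correlation was 0.87 for Chek2 (0.78 without that array), 0.79 for Wee1 (0.69), 0.76 for Chek1 (0.61), 0.67 for Atr (0.47) and 0.63 for Atm (0.50). It was 0.58 for Topbp1 (0.48), 0.54 for Trp53bp1 (0.24), 0.47 for Prkdc (0.18), 0.12 for Mdc1 (-0.06) and 0.00 for H2ax (-0.19). With the mean of 20 G1/S genes it was 0.79 for Mdc1 (0.77) and 0.50 for Topbp1 (0.44), and between -0.27 and 0.47 for the other 8. These within-group correlations were not computed for genes outside the set, so none is shown to be particular to it.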

How the data were processed

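RNA of 30 samples was hybridized to Affymetrix Mouse Gene ST 1.0 arrays, 1 array per sample. The authors summarised probe sets by robust multi-array averaging (justRMA, affy) and deposited log2 values. RMA, affy and mm9 stand in the submitters' processing notes. Quantile normalization hides a change in total RNA. There is no sequencing depth, and precision is limited by the number of arrays.

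Of 34760 probe sets, 21640 named 1 gene in the platform annotation, 1321 several and 11799 none. A gene with several probe sets was represented by the brightest, leaving 19937 genes. Comparisons were fitted with limma 3.58.1 (R 4.3.3) and adjusted by Benjamini-Hochberg over these genes: 23 parental arrays in 1 fit, 9 arrays for the untreated resistant lines, and 16 arrays with a term per line for the response and its difference. The script was tested on simulated data. Replicates are samples of 1 line, so the p-values measure the spread between them. The 4 resistant lines were measured once each and served as replicates. The fit of 16 arrays pooled the spread of parental and resistant arrays, most of them parental. Its SEs and p-values therefore do not measure the spread between resistant lines alone.

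The rule named all 10 genes in every comparison and up to 4 pathway genes per role that passed. The genes, lists and tests were chosen with earlier results of these data known.

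Parental arrays carry a number in the description, which differs from the title's at 6 and 12 h. Deviations from the time means of arrays with the same description number were correlated over all genes. The r was 0.31 to 0.77 for 0 and 6 h, 0.13 to 0.34 for 0 and 24 h and 0.39 to 0.75 for 24 and 48 h. Arrays with different numbers had medians of -0.21, -0.09 and -0.29. Deviations from a time mean sum to 0, so a positive r of same-numbered arrays pushes the others below 0. These medians are therefore no separate support for the pairing. Some arrays with different numbers exceeded same-numbered pairs. The fifth 0 h array had 0.24 with the fourth at 24 h, against 0.13 with the fifth. For these times the number was taken to pair the arrays, which is uncertain for single pairs. The sources used here do not say what same-numbered samples share. The r of same-numbered arrays was under 0.1 in 1 pair each for 0 and 12 h and 0 and 48 h. Alternatives comprised the replicate block, median and housekeeping centring, a filter on low genes, the mean of probe sets, all probe sets, another variance prior, array weights, a fibroblast covariate, fewer or more arrays in the fit, and leaving out each array.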

Additional observations from a re-analysis of the deposited data

Results flagged for a closer look

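In 50 groups of 4 or 5 parental arrays, 5 times for each of the 10 genes, 3 held an array whose gap to its neighbour took more of the group's range than Dixon's 95% critical value; chance gives about 1 in 20. At 24 h the first array was the lowest for Atm, at 9.78 against 10.24 to 10.39 on the other 4 (gap 0.753 of the range), and for Trp53bp1, at 8.76 against 9.08 to 9.14 (gap 0.830). At 12 h the first array was the lowest for Atr, at 10.10 against 10.22 to 10.23 (gap 0.935). Without the first 24 h array the changes at 24 h were 0.51 for Atm and 0.24 for Trp53bp1.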

How the results depend on the processing

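Of 850 values of single genes under alternatives other than leaving out 1 array, 817 kept their direction and side of the threshold, 12 lost a call, 5 gained one and 16 turned sign. The numbers of the 10 genes called that moved were these: at 24 h 3, with 2 (Prkdc and H2ax) under median centring, all probe sets and the fibroblast covariate, 1 (H2ax) when the 2 groups were fitted alone, 5 with the replicate block and 2 to 4 on leaving out single arrays; at 48 h 1, with 0 under median centring, all probe sets, array weights and the 2 groups alone, 2 with the replicate block and 0 to 2 without single arrays; at 48 h against 24 h 0, with 2 under array weights (Atm and Prkdc, lower); in the untreated resistant lines 1, with 0 under median centring, all probe sets and the fibroblast covariate and 0 to 1 without single arrays; in the difference in response 0, with 0 to 1. The share of all genes that passed under array weights is not given here. The 2 genes at 48 h against 24 h cannot be set against it and are no result about Atm and Prkdc. The causes were not tested. The replicate block moved no other number. Same-numbered arrays had r with 0 h of 0.08 to 0.51 at 12 h, 0.13 to 0.34 at 24 h and 0.06 to 0.61 at 48 h. The title number as replicate block changed none.

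Atm at 24 h was not called under median centring (adjusted p = 0.0565), all probe sets (0.0688), the covariate or the 2 groups alone (0.179). The sign turned in small differences: under array weights Atr at 6 h (-0.038), Topbp1 at 12 h (-0.035) and 24 h (0.0067) and Wee1 at 24 h (-0.0075); under median centring Trp53bp1 (0.0028) and Topbp1 (0.011) at 48 h against 24 h, Chek1 in treated resistant lines (0.0076) and the Atr difference in response (0.051); under housekeeping centring Chek2 in treated resistant lines (-0.0033); with the fibroblast covariate Topbp1 at 24 h (0.070), in treated resistant lines (-0.017) and in the difference in response (-0.10), and Mdc1 at 48 h against 24 h (-0.071) and in treated resistant lines (-0.031); and in the 2 alternatives added after the data were seen Topbp1 at 24 h (0.033) and Chek2 in untreated resistant lines (-0.074, without its 2 lowest 0 h arrays). On leaving out single arrays the sign turned within these ranges: Atr -0.021 to 0.15 at 6 h, -0.15 to 0.0015 at 48 h against 24 h and -0.095 to 0.094 in the difference in response; Topbp1 -0.019 to 0.033 at 12 h, -0.034 to 0.019 at 24 h, -0.038 to 0.071 in treated resistant lines and -0.032 to 0.077 in the difference in response; Wee1 -0.021 to 0.13 at 24 h; Chek1 -0.095 to 0.015, Chek2 -0.018 to 0.037 and Mdc1 -0.0014 to 0.043 in treated resistant lines; Mdc1 -0.017 to 0.087 at 48 h against 24 h; Trp53bp1 -0.13 to 0.023 in the difference in response. Over all genes, 867 rose and 484 fell at 24 h, against 788 and 1029 after median centring, and 4 and 11 in the untreated resistant lines, against 5 and 8 after housekeeping centring.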

Other observations

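Genes that lie next to the members that changed were read after the values of the members were known. The promoter windows of Atm and of Npat, a regulator of histone transcription, share 125 bases on opposite strands in GRCm38.p6. At 24 h Npat averaged 10.4 against 10.3 at 0 h, a difference of 0.10 (SE 0.06, adjusted p = 0.284, limma), where Atm rose by 0.40. Mcm4, a subunit of the replicative helicase that neighbours Prkdc, differed by 0.16 (SE 0.05, adjusted p = 0.0594), where Prkdc rose by 0.67. Dpagt1, which neighbours H2ax and acts in protein glycosylation, differed by -0.10 (SE 0.10, adjusted p = 0.469), where H2ax fell by 0.55. The difference between neighbours was not tested.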
